A study of Homo sapiens with 12 samples.

Results

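The 10 genes described here are the transcriptional coactivators YAP1 and WWTR1 (the gene of the TAZ protein), the DNA-binding partners TEAD1 and TEAD4, and 6 genes that YAP and TAZ are known to switch on or that act on them: CCN1, CCN2, ANKRD1, AMOTL2, LATS2 and AJUBA. They were chosen by name, with earlier results of these data known, and each matched 1 of the 44659 rows of the read count table. The cells were A375, an established human melanoma line whose growth depends on a mutated BRAF kinase, and cytoplasmic RNA was sequenced after removal of ribosomal RNA. In the first experiment, cells received 500 nM vemurafenib, a BRAF inhibitor, together with 500 nM cobimetinib, a MEK inhibitor, for 24 h (MAPKi, 3 libraries), and the control cells received DMSO (3 libraries). In the second experiment, cells were kept for 24 h in medium without glutamine (Gln-depleted, 3 libraries) or in control medium with 2 mM glutamine (CTRL medium, 3 libraries). No group carried an engineered allele, and all 12 libraries came from this single line, so the libraries are repeats within 1 cell line. The labels place the MAPKi experiment in sequencing batch 2 and the Gln experiment in sequencing batch 1. In the Gln experiment they also place replicate 1 of both groups in experimental batch 1 and replicates 2 and 3 in experimental batch 2. The labels do not say that replicates came from separate cultures in the MAPKi experiment, so its p-values measure the spread between these libraries, which may be technical.

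The Hippo pathway is a kinase cascade in which the kinases MST1 and MST2 (genes STK4 and STK3) activate LATS1 and LATS2, which phosphorylate YAP and TAZ and keep them out of the nucleus. When LATS activity is low, YAP and TAZ enter the nucleus and bind TEAD factors. They then switch on genes for matricellular proteins, cytoskeletal regulators and inhibitors of YAP and TAZ themselves, AMOTL2 and LATS2 among them. In melanoma, YAP and TEAD activity is known from work with BRAF and MEK inhibitors as a feature of dedifferentiated, drug-tolerant states.

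TEAD factors recognise the letters GGAATG, and the windows from 250 bases before to 50 bases after each annotated start (RefSeq, GRCh38.p14) were searched for them on both strands. A window was listed for 7 of the 10 genes, with 10 windows in all because AMOTL2, WWTR1 and AJUBA had more than 1 start. No window was listed for CCN1, TEAD1 or TEAD4. At least 1 match was found in 6 of the 10 windows, and the share among all 35116 windows was 14%. CCN2 had 3 matches, a number reached by 0.128% of all windows, and ANKRD1 had 2, reached by 1.37%. The CCN2 window lay on the minus strand of chromosome 6, and its matches began 169, 104 and 95 bases before the start. The ANKRD1 window lay on the minus strand of chromosome 10, and its matches began 220 and 128 bases before the start. The 250 bases before the start of these genes are shown because they hold the most matches, with GGAATG in capitals. Neither stretch overlapped an annotated exon (GENCODE v44).
CCN2, chr6:131951373-131951622, minus strand: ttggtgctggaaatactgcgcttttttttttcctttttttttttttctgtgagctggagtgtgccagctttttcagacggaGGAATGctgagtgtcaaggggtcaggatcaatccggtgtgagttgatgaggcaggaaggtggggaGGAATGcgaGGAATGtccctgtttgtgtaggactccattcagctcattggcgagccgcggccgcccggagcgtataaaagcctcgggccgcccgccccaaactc
ANKRD1, chr10:90921088-90921337, minus strand: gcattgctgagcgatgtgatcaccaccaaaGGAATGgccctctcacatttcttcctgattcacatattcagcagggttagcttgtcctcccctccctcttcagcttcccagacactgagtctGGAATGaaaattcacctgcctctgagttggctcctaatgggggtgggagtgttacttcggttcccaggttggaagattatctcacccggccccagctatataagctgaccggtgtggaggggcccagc

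A single match was found for YAP1, for LATS2 and for the inner start of AMOTL2 and of AJUBA. It began 162 bases before the start in YAP1, and on base 10 in LATS2 when the start itself is the first base. It began 69 bases before the inner start in AMOTL2, where it read on the reverse strand, and 59 bases before the inner start in AJUBA. These 30-base stretches show how the letters around the match, in capitals, differ between the genes.
YAP1, chr11:102110273-102110302, plus strand: cgggagtgtgcaGGAATGtagcaacttgca
LATS2, chr13:21061560-21061589, minus strand: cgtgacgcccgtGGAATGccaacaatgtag
AMOTL2, chr3:134374499-134374528, minus strand: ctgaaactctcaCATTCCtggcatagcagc
AJUBA, chr14:22976884-22976913, minus strand: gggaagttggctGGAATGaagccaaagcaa

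Both WWTR1 windows and the outer windows of AMOTL2 and AJUBA held no match to these letters. The letters TGANTCA, where N is any base, include the TGACTCA and TGAGTCA sites of AP-1 factors, which often occupy the same elements as TEAD. They were found in 1 of the 10 windows and in 7.71% of all windows. The window was that of ANKRD1, where they began 195 bases before the start. There they read TGATTCA, which is neither of these sites. A match is a description of the sequence and does not show that a factor was bound in A375 cells.

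Depth was 31056296 to 40071368 reads assigned to genes per library (median 35748567). The 10 genes together took 0.064% to 0.068% of the reads with MAPKi and 0.156% to 0.166% with DMSO. They took 0.152% to 0.176% in CTRL medium and 0.153% to 0.199% in Gln-depleted cells. Normalized read counts below are reads scaled within each experiment by TMM factors, so a value can be compared between the 6 libraries of 1 experiment. WWTR1 weighed most in these shares, at a mean of 36772 normalized reads with DMSO, where the 10 genes summed to 55166 to 57333. With MAPKi its mean was 10911 and the 10 genes summed to 23097 to 23599. A gene was called downregulated or upregulated when edgeR found its change larger than 1.5-fold with an adjusted p no higher than 0.05, and lower or higher when it differed from no change by the same limit. The labels were first checked against genes known to follow each treatment. DUSP6, a phosphatase that the MAPK pathway switches on, stood at 2.01 to 8.91 normalized reads with MAPKi and 4332 to 4627 with DMSO. SPRY4, a feedback inhibitor of the same pathway, stood at 86.3 to 111 normalized reads with MAPKi and 16439 to 16964 with DMSO. ASNS, an asparagine synthetase gene that amino acid shortage switches on, stood at 124 to 144 normalized reads in Gln-depleted cells and 10.9 to 22.9 in CTRL medium.

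With MAPKi, the coactivator WWTR1, both TEAD factors and the matricellular targets CCN1 and CCN2 were lower, and AMOTL2 was higher. The coactivator YAP1 was lower by little, at 90.1% of the control level. Of the 9 genes that passed the minimum of 10 normalized reads on average, WWTR1, TEAD1, CCN1 and CCN2 were downregulated, AMOTL2 was upregulated, and YAP1 and TEAD4 were lower without a change beyond the threshold. LATS2 and AJUBA passed neither test, and ANKRD1 was at or near 0 and was not tested. The 5 threshold calls of 9 stood beside 35.5% of the 12598 genes tested, with 17% upregulated and 18.6% downregulated, and the 7 calls against no change beside 78.1%. MAPKi and DMSO libraries did not overlap for 7 of the 9 genes, and for 81% of all genes tested. The median log2 fold change was -0.59 over the 9 genes and 0.002 over all genes tested.

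**Figure D1:**
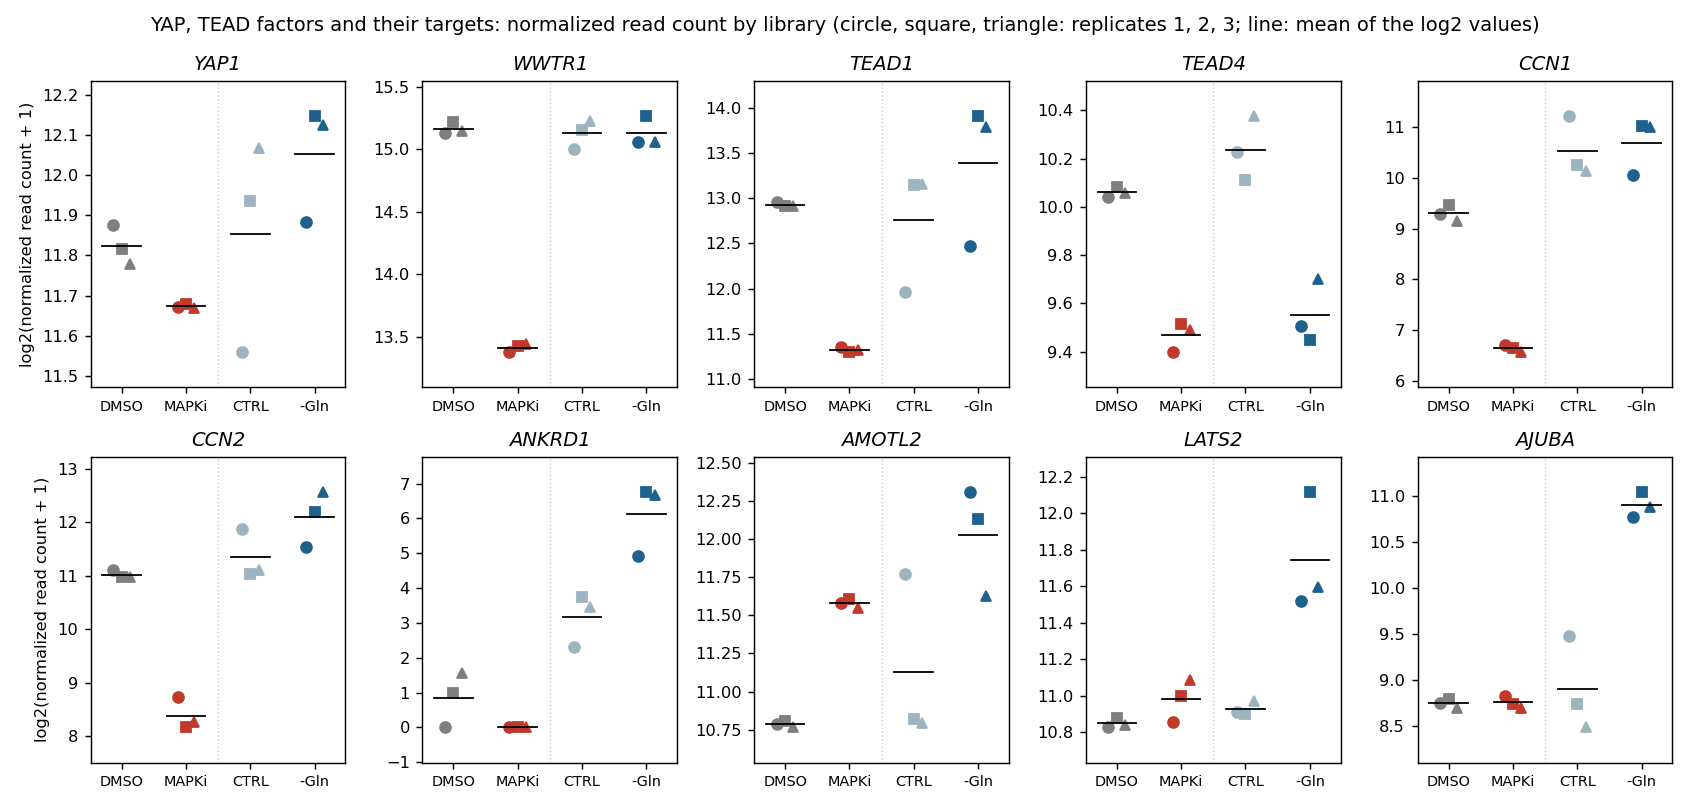
Normalized read count of each gene in each of the 12 libraries, on a log2 scale after adding 1; each panel has its own vertical axis, symbols mark replicates 1 to 3 and the line marks the mean of the log2 values, and the dotted line separates the experiments, which were scaled apart. WWTR1, TEAD1, CCN1 and CCN2 fall with MAPKi with little spread, whereas in the Gln experiment replicate 1 (circles) of CCN1 and CCN2 moves against replicates 2 and 3.

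YAP1 encodes the coactivator YAP. Its normalized read count was 3261.9, 3279.5 and 3254.5 with MAPKi and 3754.4, 3604.7 and 3513.5 with DMSO. The groups did not overlap, but MAPKi libraries kept 90.1% of the control level (log2 fold change -0.15, SE 0.04, adjusted p = 0.0072). With 1 fit to all 12 libraries the adjusted p of YAP1 was 0.36. WWTR1 encodes the paralogous coactivator TAZ. It stood at 10655, 10981 and 11096 normalized reads with MAPKi and at 35935, 38084 and 36295 with DMSO. Every MAPKi library was below every DMSO library, at 29.7% of the control level (log2 fold change -1.75, SE 0.04, adjusted p = 2.65e-09). The coactivators thus differed in how much of their RNA was left.

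TEAD1 encodes a TEAD factor that anchors YAP and TAZ on DNA. Its normalized read count was 2608.0, 2519.2 and 2553.8 with MAPKi and 7973.3, 7734.3 and 7709.2 with DMSO. The MAPKi libraries held 32.8% of the control level, with no overlap (log2 fold change -1.61, SE 0.04, adjusted p = 2.68e-09). TEAD4, another member of that family, stood at 674, 730.3 and 718 normalized reads with MAPKi and at 1052, 1082 and 1065 with DMSO. All 3 MAPKi libraries were lower, at 66.3% of the control level (log2 fold change -0.59, SE 0.05, adjusted p = 4.87e-06). The change of TEAD4 lay at the 1.5-fold threshold and did not exceed it (adjusted p = 0.47 for that test).

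CCN1 encodes a secreted matricellular protein of the CCN family and is among the best known YAP targets. Its normalized read count was 103, 100.2 and 94.6 with MAPKi and 626, 706 and 569 with DMSO. The MAPKi libraries held 15.7% of the control level (log2 fold change -2.67, SE 0.10, adjusted p = 2.47e-08). CCN2, which encodes connective tissue growth factor, stood at 423, 286 and 306 normalized reads with MAPKi and at 2205, 2006 and 2026 with DMSO. Its MAPKi libraries held 16.3% of the control level (log2 fold change -2.62, SE 0.12, adjusted p = 8.61e-08). For both genes the highest MAPKi library was far below the lowest DMSO library. ANKRD1, an ankyrin repeat protein gene and another classical YAP target, had no read in any MAPKi library and 0, 0.990 and 1.94 normalized reads in the DMSO libraries. All 6 libraries were below the floor of 3 reads that a count of 0 allows, so a change of ANKRD1 with MAPKi was not detectable at this depth.

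AMOTL2 encodes a scaffold of the angiomotin family, a YAP target that also holds YAP outside the nucleus. It stood at 3065, 3120.3 and 2987 normalized reads with MAPKi and at 1770.2, 1788 and 1739 with DMSO. All MAPKi libraries were above all DMSO libraries, at 173% of the control level (log2 fold change 0.79, SE 0.04, adjusted p = 8.35e-08). With 1 fit to all 12 libraries the change no longer exceeded the threshold (adjusted p = 0.24), although it stayed higher (adjusted p = 0.021). LATS2, the kinase that phosphorylates YAP and is itself a YAP target, stood at 1853, 2042 and 2175 normalized reads with MAPKi and at 1814, 1883 and 1835 with DMSO. The groups overlapped (log2 fold change 0.13, SE 0.06, adjusted p = 0.061), and without MAPKi replicate 1, the lowest MAPKi library, LATS2 was higher (0.19, adjusted p = 0.0073). AJUBA encodes a LIM protein that binds and restrains LATS kinases. Its normalized read count was 453, 425 and 414 with MAPKi and 429, 444 and 412 with DMSO. The ranges overlapped almost fully (log2 fold change 0.01, SE 0.07, adjusted p = 0.91).

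In the Gln experiment all 10 genes passed the minimum, ANKRD1 only through its Gln-depleted libraries. In the unpaired fit, which held no term for the replicate number, AJUBA and ANKRD1 were upregulated and LATS2 was higher without exceeding the threshold. In that fit TEAD4 was lower, and the other 6 passed neither test. The 2 threshold calls of 10 stood beside 5.6% of the 12517 genes tested, with 3.5% upregulated, and the 4 calls against no change beside 17.9%. Gln-depleted and CTRL medium libraries did not overlap for 4 of the 10 genes, and for 39.9% of all genes tested. The median log2 fold change was 0.72 over the 10 genes and 0.003 over all genes tested. Libraries with the same replicate number deviated together in this experiment. A term for the replicate number in the fit (a replicate block) raised the calls against no change from 4 to 6 of 10, as AMOTL2 and TEAD1 passed as well. These stood beside 49% of all genes tested in that fit.

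AJUBA was higher in Gln-depleted cells in every pair. Its normalized read count was 1747, 2111 and 1893 in Gln-depleted cells and 711, 425 and 356 in CTRL medium. The lowest Gln-depleted library was above the highest control library (3.85-fold, log2 fold change 1.95, SE 0.28, adjusted p = 0.0046). The change exceeded the threshold with all libraries (adjusted p = 0.013) but not without CTRL medium replicate 2 (0.063), CTRL medium replicate 3 (0.052) or Gln-depleted replicate 2 (0.054). AJUBA remained higher against no change without any 1 of the 6 libraries, with adjusted p-values of at most 0.026. With the replicate block it stayed upregulated. LATS2 stood at 2929, 4438 and 3093 normalized reads in Gln-depleted cells and at 1927, 1912 and 2005 in CTRL medium. All Gln-depleted libraries were higher (log2 fold change 0.84, SE 0.21, adjusted p = 0.031), although the adjusted p rose to between 0.055 and 0.11 without any 1 library other than Gln-depleted replicate 1. With the replicate block LATS2 stayed higher. AMOTL2 stood at 5068, 4493 and 3167 normalized reads in Gln-depleted cells and at 3500, 1806 and 1773 in CTRL medium. The groups overlapped because CTRL medium replicate 1 was above Gln-depleted replicate 3, but each Gln-depleted library was above the control of its own number. AMOTL2 passed no test in the unpaired fit (log2 fold change 0.85, SE 0.32, adjusted p = 0.096) and was higher with the replicate block (0.89, SE 0.16, adjusted p = 0.0034).

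ANKRD1 was rare in CTRL medium, at 3.94, 12.4 and 9.95 normalized reads, and stood at 29.6, 107 and 102 in Gln-depleted cells. Its mean of 8.76 in CTRL medium was below the minimum of 10. It passed that minimum only through its Gln-depleted libraries, so its call carries less weight than that of AJUBA. Every Gln-depleted library was above every control library (8.94-fold, log2 fold change 3.16, SE 0.63, adjusted p = 0.013). The change exceeded the threshold with all libraries (adjusted p = 0.030) but not without any 1 of the CTRL medium libraries (0.062, 0.079 and 0.091 without replicates 1, 2 and 3) or without Gln-depleted replicate 2 (0.11) or 3 (0.10). With the replicate block ANKRD1 stayed upregulated.

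CCN1 stood at 1057, 2057 and 2032 normalized reads in Gln-depleted cells and at 2357, 1214 and 1119 in CTRL medium. Gln-depleted replicate 1 was lower than its control and Gln-depleted replicates 2 and 3 were higher than theirs, so the groups overlapped (log2 fold change 0.13, SE 0.36, adjusted p = 0.82). The log2 ratio of CCN1 within pairs, after adding 0.5 normalized reads to each library, was -1.16 in experimental batch 1 and 0.76 and 0.86 in experimental batch 2. CCN2 showed the same split. It stood at 2989, 4667 and 6053 normalized reads in Gln-depleted cells and at 3757, 2101 and 2211 in CTRL medium (log2 fold change 0.76, SE 0.32, adjusted p = 0.13). Its log2 ratio within pairs was -0.33 in experimental batch 1 and 1.15 and 1.45 in experimental batch 2. Within experimental batch 2 alone, CCN2 was upregulated (log2 fold change 1.31, SE 0.18, adjusted p = 0.0041) and CCN1 was higher (0.81, SE 0.14, adjusted p = 0.0074). In that fit of replicates 2 and 3, 8 of the 10 genes differed from no change, 7 of them higher, beside 34.9% of all genes tested, and 3 were called by the threshold, beside 11%. Experimental batch 1 holds 1 library of each group and allows no test.

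**Figure D2:**
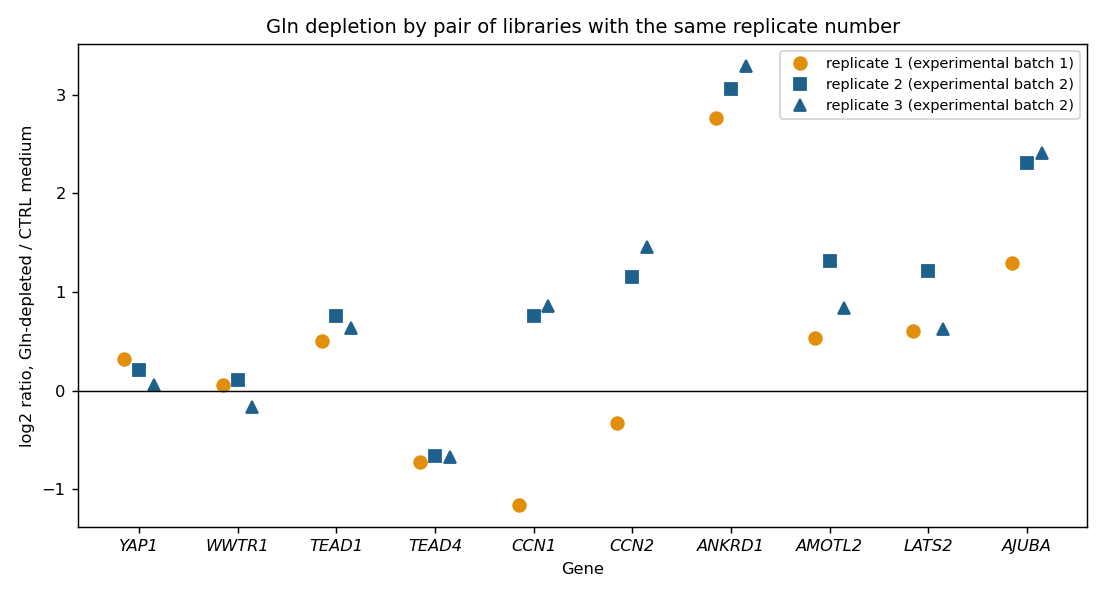
Log2 ratio of normalized read counts, Gln-depleted over CTRL medium, for each pair of libraries with the same replicate number (vertical axis) and each gene (horizontal axis); orange marks experimental batch 1 and blue experimental batch 2. The ratios of CCN1 and CCN2 are below 0 in experimental batch 1 and above 0 in experimental batch 2. AJUBA, ANKRD1, LATS2, AMOTL2, TEAD1 and, by less, YAP1 lie above 0, and TEAD4 below 0, in all 3 pairs.

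TEAD1 varied more between experimental batches than between media. It stood at 5670, 15373 and 14194 normalized reads in Gln-depleted cells and at 4002, 9066 and 9112 in CTRL medium. The groups overlapped and the unpaired fit made no call (log2 fold change 0.67, SE 0.43, adjusted p = 0.30). Each Gln-depleted library was above the control of its number, by log2 ratios of 0.50, 0.76 and 0.64, and with the replicate block TEAD1 was higher (0.64, SE 0.11, adjusted p = 0.0031). TEAD4 moved the other way, at 726, 698 and 832 normalized reads in Gln-depleted cells and 1197, 1104 and 1327 in CTRL medium. It was lower without overlap (log2 fold change -0.69, SE 0.19, adjusted p = 0.039), but the adjusted p was 0.057 to 0.14 without any 1 of the 6 libraries. Its log2 ratio within pairs was -0.72, -0.66 and -0.67, and TEAD4 stayed lower with the replicate block.

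YAP1 stood at 3774, 4530.3 and 4464 normalized reads in Gln-depleted cells and at 3018, 3915 and 4290.3 in CTRL medium. These ranges overlapped (log2 fold change 0.19, SE 0.20, adjusted p = 0.55). WWTR1 stood at 34175, 39337 and 34090 normalized reads in Gln-depleted cells and at 32875, 36438 and 38362 in CTRL medium. No difference in WWTR1 was detectable (adjusted p = 0.997), and its sign changed with the scaling of the libraries. Neither coactivator passed a test with the replicate block (adjusted p = 0.19 for YAP1 and 0.99 for WWTR1).

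Whether the genes responded differently to drug and medium was tested directly, as the difference between the log2 fold changes of the experiments, which share no library. The experiments were sequenced in different batches, and the batch cannot be told apart from the experiment. The difference passed for 7 of the 10 genes, beside 40.5% of the 12631 genes tested, and in all 7 the log2 fold change was lower with MAPKi than with Gln depletion. It was -1.71 for WWTR1 (SE 0.14, adjusted p = 5.07e-06), -2.24 for TEAD1 (SE 0.49, adjusted p = 0.0034), -2.75 for CCN1 (SE 0.44, adjusted p = 0.00044) and -3.33 for CCN2 (SE 0.40, adjusted p = 6.22e-05). It was -1.89 for AJUBA (SE 0.31, adjusted p = 0.00051) and -0.66 for LATS2 (SE 0.21, adjusted p = 0.024), genes that did not pass a test with MAPKi. The adjusted p for LATS2 was 0.065 without MAPKi replicate 1 and 0.052 without DMSO replicate 2. The value for ANKRD1 (adjusted p = 0.034) rests on MAPKi and DMSO libraries at 0 to 1.94 normalized reads and is no measure of size. Its adjusted p was 0.054 to 0.16 without MAPKi replicate 1 or 3, DMSO replicate 2 or 3, or Gln-depleted replicate 2 or 3. AMOTL2 had log2 fold changes of 0.79 with MAPKi and 0.85 with Gln depletion, and the difference was -0.0031 with an SE of 0.35 (adjusted p = 0.995). TEAD4 fell in both experiments, with a difference of 0.14 (SE 0.16, adjusted p = 0.52). YAP1 differed by -0.30 (SE 0.18, adjusted p = 0.22), and by a call only with a replicate block in each experiment (adjusted p = 0.023).

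**Figure D3:**
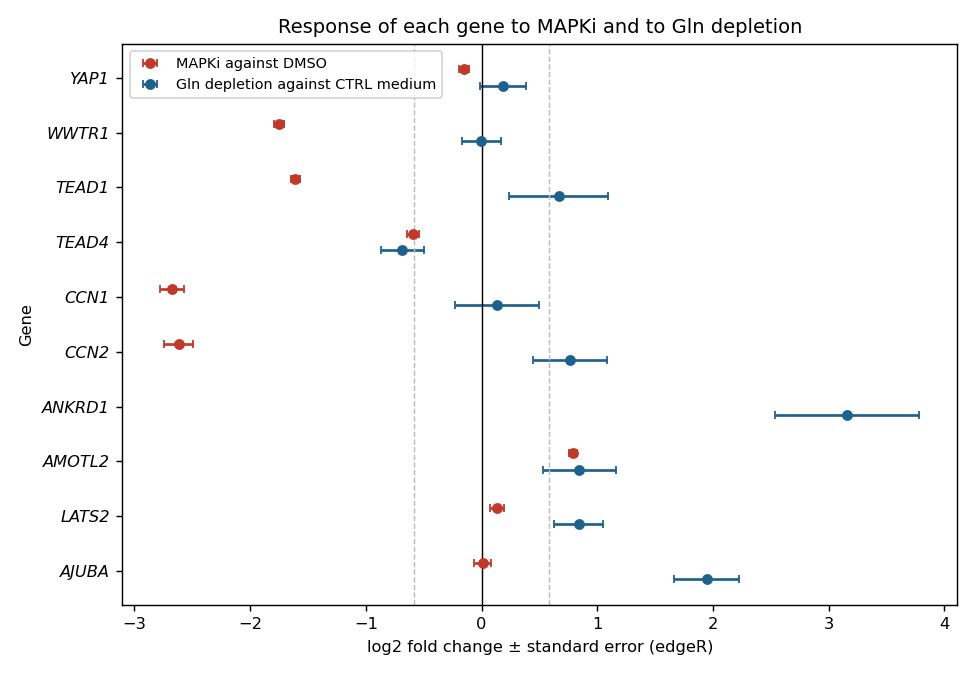
Log2 fold change of each gene (edgeR, horizontal axis) with MAPKi against DMSO and with Gln depletion against CTRL medium; bars are standard errors and dashed lines the 1.5-fold threshold in either direction. WWTR1, TEAD1, CCN1 and CCN2 lie left of the lower threshold with MAPKi only; AMOTL2 lies to the right in both experiments; ANKRD1 has no value for MAPKi.

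Levels were compared between genes as RPKM, reads per kilobase of annotated exon scaled to the reads of the library. With DMSO, WWTR1 was the highest of the 10 genes at 131 RPKM (128 to 136 over 3 libraries), and YAP1 stood at 17.1 (16.6 to 17.7). Below WWTR1 followed CCN2 at 26.5, TEAD1 at 21.7, YAP1, TEAD4 at 13.96, LATS2 at 9.78, AMOTL2 at 8.11, CCN1 at 5.10, AJUBA at 2.17 and ANKRD1 at 0.016 RPKM. No neighbours in this order overlapped between libraries, although LATS2 and AMOTL2 changed places when the longest transcript set the length. With MAPKi the level of WWTR1 was 38.9 and that of YAP1 15.4, so that the distance between the coactivators narrowed. CCN2, below WWTR1 alone with DMSO, stood below 6 of the genes with MAPKi at 4.31, the nearest of them TEAD1 at 7.12. In CTRL medium, CCN1 stood at 12.7 (8.86 to 19.4) and CCN2 at 34.5 (26.9 to 49.0), and in Gln-depleted cells at 13.4 (8.30 to 16.0) and 56.6 (37.2 to 75.2). Libraries of CTRL medium spread more widely than those with DMSO for both genes, and their difference in level between experiments was not tested because it coincides with the sequencing batch.

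**Figure D4:**
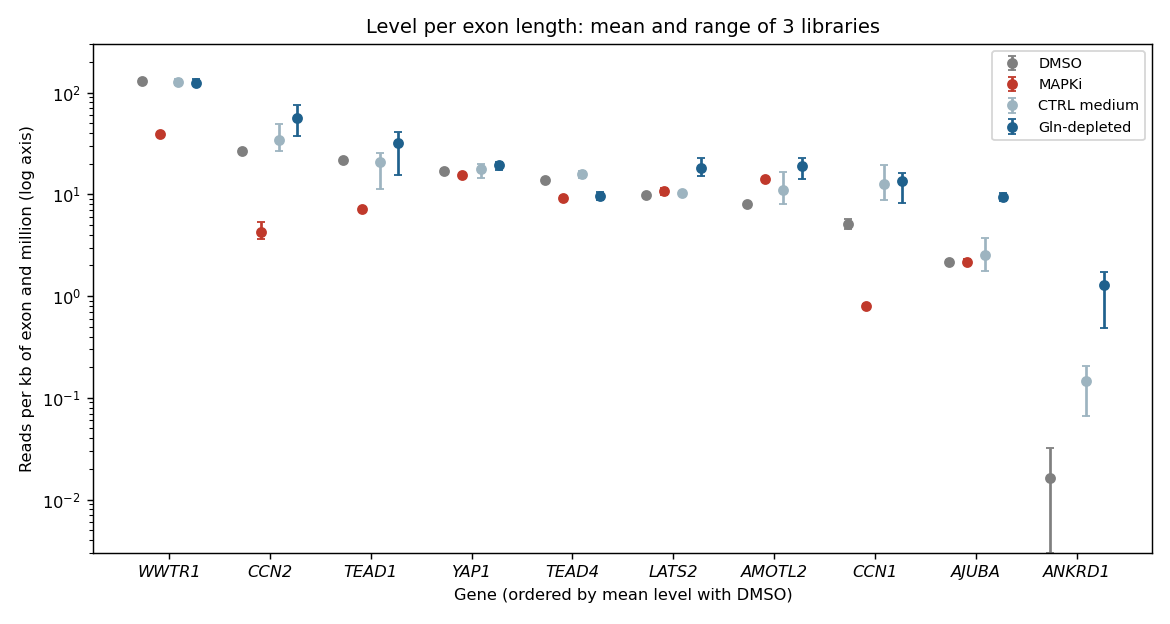
Level of each gene as RPKM, reads per kilobase of exon scaled to library size (log axis) in the 4 groups; points are means and bars the range of 3 libraries, and ANKRD1 with MAPKi, at 0, is not drawn. WWTR1 is at 124 to 131 in 3 groups and at 38.9 with MAPKi, and CCN2 and CCN1 show the widest distance between MAPKi and DMSO among the genes drawn.

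The other genes of the pathway were described by 6 lists, with 64 genes in all besides the 10, and PTPN14 in 2 of the lists. The lists too were chosen with earlier results of these data known. With MAPKi, 20 of the 57 tested were called, 9 upregulated and 11 downregulated, which is 35.1% beside 35.5% of all genes tested. Their median log2 fold change was -0.08. With Gln depletion 6 of 56 were called, 3 in each direction, which is 10.7% beside 5.6% of all genes tested, and their median was 0.26. With the replicate block 13 of the 56 were called in that experiment, beside 16.7% of all genes tested. Without CTRL medium replicate 2 or Gln-depleted replicate 2 the calls numbered 2.

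**Figure D5:**
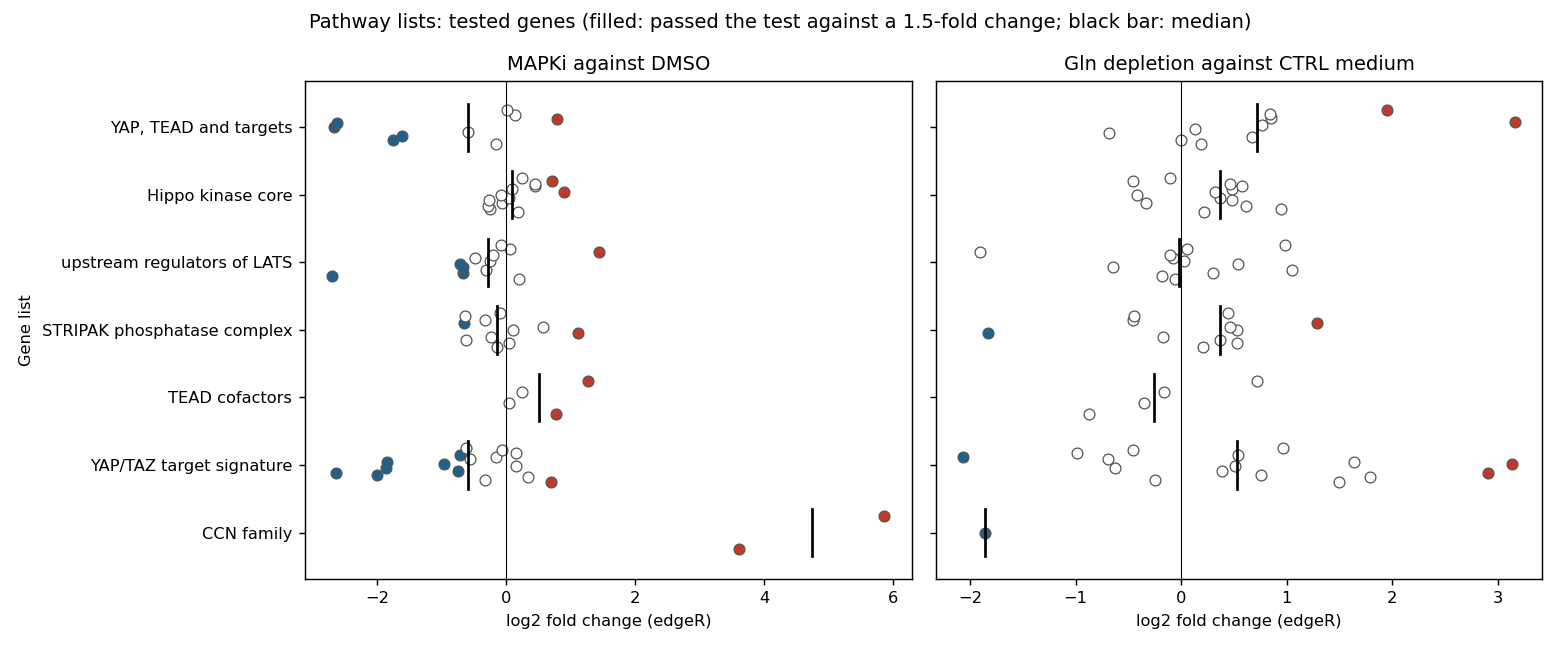
Log2 fold change (edgeR, horizontal axis) of every tested gene of the 10 described here and of the 6 other pathway lists, with MAPKi on the left and Gln depletion on the right; filled points passed the test against a 1.5-fold change, in red when up and blue when down, open points did not, and the black bar is the list's median. The target signature leans left with MAPKi, with 7 of 16 tested downregulated, beside 18.6% of all genes tested, and the Hippo kinase core has its median at 0.097 with MAP4K3 and TAOK2 filled on the right.

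The Hippo kinase core holds MST1 and MST2, their partners, LATS1 and the parallel MAP4K and TAO kinases. With MAPKi, 2 of its 13 genes were called, both upregulated, by edgeR and by DESeq2, which is 15.4% beside 35.5% of all genes tested, and the list's median log2 fold change was 0.097. They were MAP4K3 (0.89) and TAOK2 (0.71), kinases that can act on LATS beside MST1 and MST2. With Gln depletion 0 of the 13 passed the threshold test in the unpaired edgeR fit or in DESeq2, and 1 had an unadjusted p under 0.05 in it. STK4 was higher against no change (0.94, adjusted p = 0.033) and passed the threshold with the replicate block (adjusted p = 0.029). Upstream regulators, which bring LATS to membranes and junctions, had 4 of 12 tested downregulated and 1 upregulated with MAPKi in edgeR, beside 18.6% and 17% of all genes tested, and 2 downregulated and 1 upregulated in DESeq2. WWC1, the KIBRA scaffold that activates LATS, stood at 79.2, 91.3 and 98.1 normalized reads with MAPKi and at 571, 685 and 484 with DMSO (log2 fold change -2.69, SE 0.15). FAT4, a giant cadherin, was upregulated (1.45) and PTPN14, a phosphatase that binds YAP, was downregulated (-0.71). With Gln depletion 0 of these 12 were called by the threshold in the unpaired edgeR fit or in DESeq2, and 3 had an unadjusted p under 0.05 in it. With the replicate block WWC3, a paralog of WWC1, passed the threshold (1.04, adjusted p = 0.017).

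STRIPAK is a phosphatase complex that switches MST kinases off. With MAPKi 1 of 11 tested was upregulated, STRIP2 (1.11), and 1 was downregulated, STK24 (-0.66), a germinal centre kinase that DESeq2 did not call. These 2 calls are 18.2% of the list, beside 35.5% of all genes tested. With Gln depletion these genes were called in the opposite directions, STRIP2 at -1.83 and STK24 at 1.28, and no other gene of the list was called. Of the remaining TEAD factors and the VGLL proteins that bind TEADs, 4 were tested. VGLL4, a competitor of YAP for TEADs, was upregulated with MAPKi, at 3391, 3619 and 3633 normalized reads against 1447, 1592 and 1368 with DMSO (log2 fold change 1.27, SE 0.06). TEAD2 was upregulated in edgeR (0.78) and not past the threshold in DESeq2, while TEAD1 was downregulated. With Gln depletion VGLL4 was higher without exceeding the threshold (0.72, adjusted p = 0.032). TEAD2 was lower without exceeding it (-0.87, adjusted p = 0.045), opposite to its change with MAPKi. In edgeR or DESeq2, 0 of the 4 passed the threshold test, and in the edgeR threshold test 0 had an unadjusted p under 0.05.

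The list of further YAP and TAZ targets held 17 genes, of which 16 were tested. With MAPKi 7 were downregulated, beside 18.6% of all genes tested, and 1 was upregulated, beside 17%, with a median log2 fold change of -0.59. DESeq2 called the same 7 and not the upregulated gene, MYOF, which encodes a membrane repair protein. IGFBP3, a binding protein of insulin-like growth factors, stood at 48.1, 45.6 and 27.4 normalized reads with MAPKi and at 236, 272 and 239 with DMSO (log2 fold change -2.63, SE 0.20). F3, the coagulation tissue factor, was at -2.004 and FJX1, a secreted kinase-like protein, at -1.86. With Gln depletion 2 of the 16 were upregulated and 1 was downregulated in the unpaired fit, 18.8% beside 5.6% of all genes tested, with a median of 0.52. With the replicate block 6 were upregulated and 2 downregulated, beside 16.7% of all genes tested in that fit. IGFBP3 stood at 3705, 2234 and 1901 normalized reads in Gln-depleted cells and at 519, 260.1 and 264 in CTRL medium (log2 fold change 2.91, SE 0.38). GADD45A, a stress response gene that is also switched on by shortage of amino acids, was upregulated (3.13), and CCDC80, a matrix protein gene, was downregulated (-2.07).

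Of the 4 remaining CCN genes, CCN3 and CCN5 passed the minimum in the MAPKi experiment. Both were upregulated, beside 17% of all genes tested, while CCN1 and CCN2 were downregulated. CCN5 stood at 48.1, 51.2 and 39.8 normalized reads with MAPKi and at 1.08, 0.990 and 0 with DMSO. It passed the minimum only through its MAPKi libraries, so its call carries less weight than that of CCN3. CCN3, which often opposes CCN2, stood at 17330.0, 18378 and 18070.0 normalized reads with MAPKi and at 1629, 1446 and 1325 with DMSO (log2 fold change 3.61, SE 0.08). With Gln depletion CCN3 was downregulated, at 478, 476 and 841 normalized reads against 1499, 2435 and 2576 in CTRL medium (log2 fold change -1.86, SE 0.31). The difference between the experiments was 5.51 for CCN3 (SE 0.35, adjusted p = 5.60e-07), against -3.33 for CCN2.

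The serum response factor and its MRTF cofactors answer to actin and share targets such as CCN1 with YAP. Of 10 tested genes of this list, 1 was called with MAPKi, beside 35.5% of all genes tested, and the median was 0.07. The call was ACTG2, upregulated from low counts. VCL, the vinculin gene and the most abundant member of the list, was higher (0.40). With Gln depletion FHL2, a LIM protein gene, was upregulated (1.53), the only call among 9, beside 5.6% of all genes tested. All 13 tested targets of the MAPK pathway were downregulated with MAPKi, beside 18.6% of all genes tested. With Gln depletion 3 of 14 were upregulated, EGR1 (2.25), FOSL1 (2.22) and CCND1 (1.93), beside 3.5% of all genes tested. All 14 genes together, called or not, summed to 230118 to 299084 normalized reads against 129909 to 145536 in CTRL medium.

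Markers of the cell type moved beside the 10 genes. The 8 melanocyte lineage genes summed to 312549 to 394566 normalized reads with MAPKi and 53494 to 56888 with DMSO. Most of the MAPKi sum was DCT (5.28), at 243610 to 322840 normalized reads against 5659 to 8471 with DMSO. Of the 8 genes 5 were upregulated, beside 17% of all genes tested, DCT, PMEL (2.91) and MLANA (2.62) by most. S100B was downregulated (-2.13), the 1 such call, beside 18.6% of all genes tested. In Gln-depleted cells the 8 genes summed to 27255 to 29471 against 41134 to 50772 in CTRL medium, with MITF downregulated (-2.34). Keratinocyte markers summed to 16.7 to 23.9 normalized reads with MAPKi, 5.0 to 9.7 with DMSO and at most 7.9 in the Gln experiment. TP63 carried the difference between MAPKi and DMSO (2.03), at 12.2 to 22.1 normalized reads against 1.98 to 5.38. It passed the minimum only through its MAPKi libraries. Fibroblast markers summed to 846 to 929 with MAPKi and 721 to 937 with DMSO, with PDGFRB upregulated (1.86), COL1A1 higher (0.83) and LUM lower (-0.69), and to 349 to 423 in Gln-depleted cells against 572 to 894, with LUM downregulated (-2.21). Among leukocyte markers CD68, a lysosomal protein gene, was upregulated with MAPKi (2.73) and PTPRC, at 2.65 to 6.68 normalized reads against 13.5 to 18.3, was downregulated (-1.81), and VWF of the endothelial list was upregulated (0.87). The part of these markers in the changes of the 10 genes was not tested. In bulk RNA, fewer cells with a transcript and less of it per cell cannot be told apart.

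Some read assignments limit the values of single genes. The antisense gene WWTR1-AS1 overlaps WWTR1 and held 587 reads over 12 libraries beside 358380 for WWTR1, and LINC01013 held 65 beside 28364 for CCN2. AJUBA overlaps another protein-coding gene model on the same strand, so its reads may be split in counting. The row named TAZ in the table is tafazzin and was not used for WWTR1.

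The genes whose pattern was most like that of a member were found by Pearson correlation over the 12 libraries, each centred on the mean of its control group, among 10460 genes with at least 100 normalized reads on average. For YAP1 these were FBXW7 (0.98), CACUL1 (0.98) and CFAP97 (0.97). For CCN1 they were TUBGCP3 (0.99), GNB1 (0.99) and SSRP1 (0.98), and for CCN2 DENND1A, CKS1B and CARHSP1 (0.98 each). Among the members, CCN1 and CCN2 correlated at 0.97, WWTR1 and CCN1 at 0.95, LATS2 and AJUBA at 0.89 and TEAD4 and AMOTL2 at -0.84. These correlations describe 12 libraries in 4 groups, so they mostly restate the group means, and they carry no test.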

How the data were processed

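Cytoplasmic RNA of 12 A375 libraries was sequenced (library totals of 31056296 to 40071368 reads). The authors deposited 1 table of raw read counts per gene: reads were trimmed with fastp 0.20.1, aligned to GRCh38.p13 with HISAT2 2.2.1 and counted with HTSeq 0.13.5, per the labels. The labels give cytoplasmic RNA and the study's methods total RNA. Strandedness of the counting is not given in the sources used here. Counts were fitted in R 4.3.3 with edgeR 4.0.16 (quasi-likelihood, TMM over protein-coding genes), for each experiment apart, keeping protein-coding genes that averaged 10 or more normalized reads. Threshold calls used glmTreat against a 1.5-fold change, single-gene p-values glmQLFTest, with Benjamini-Hochberg adjustment over all genes tested; no value was adjusted over the members alone. The difference between experiments was a contrast over all 12 libraries. The fits were tested on simulated data. Of 106 genes changed by a log2 fold change of 1.2, the threshold test called 93 in the MAPKi fit and 8 in the Gln fit. The test against no change called 103 and 46 of them. Of 94 genes changed by a log2 fold change of 2, the threshold test called 94 and 69. A gene without a call with Gln depletion may thus still have changed. DESeq2 1.42.0, other filters, a replicate block, a batch term and leaving out each library were alternatives. In the Gln experiment the deviations of same-numbered libraries from their group means correlated at 0.716, 0.606 and 0.445 over 10739 genes, and the labels tie replicate 1 to its own experimental batch, so the numbers pair the samples. The main fit of that experiment and the contrast between the experiments held no term for these pairs. Of the 44659 rows, 36524 matched an annotated gene by symbol. Named besides the members are, for each list and experiment, up to 3 called genes with the largest change and at least 50 normalized reads. Where none was called, the most abundant gene was named. The 3 genes most like YAP1, CCN1 and CCN2 are named too. CCN5, STK4, WWC3, MYOF, ACTG2, COL1A1, PTPRC and S100B were named after their values were seen. The same holds for LUM with MAPKi and TEAD2 with Gln depletion. Members and lists were chosen with earlier results of these data known. Intervals and floors cover counting error only.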

Additional observations from a re-analysis of the deposited data

Results flagged for a closer look

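The log2 fold changes with MAPKi and with Gln depletion differed, by the contrast over all 12 libraries, for 7 of the 10 genes. The change with MAPKi minus that with Gln depletion was -1.71 for WWTR1, -2.24 for TEAD1, -2.75 for CCN1, -3.33 for CCN2, -0.66 for LATS2 and -1.89 for AJUBA. For ANKRD1 it was -6.30, a value set by MAPKi and DMSO libraries at or near 0. Among the other pathway genes 25 of 57 tested differed as well, 17 of them lower with MAPKi than with Gln depletion, beside 40.5% of all genes tested.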

How the results depend on the processing

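With MAPKi, 5 members were called, 4 in the fit of all 12 libraries, which lost AMOTL2, 7 with no fold-change threshold and 5 under each other alternative, leaving out 1 library included. Other pathway genes called with MAPKi numbered 20, with 10 in the fit of all 12 libraries (17.5%, beside 24% of all genes), 15 with DESeq2 (26.3% beside 30.1%) and 43 with no fold-change threshold (75.4% beside 78.1%). The replicate block, where numbers share only a number in the MAPKi experiment (correlations 0.13, 0.0679 and 0.00933), raised calls against no change among members from 7 to 8 (79.9% of all genes tested), as LATS2 passed. With Gln depletion 2 members were called, 4 with no threshold and 0 to 2 without 1 library, and other pathway genes numbered 6, with 12 in the fit of all 12 libraries (13.4% of all genes), 13 with the replicate block (16.7%), 14 with a batch term (15.1%), 16 with no threshold (17.9%) and 2 to 7 without 1 library. The replicate block changed no other threshold call of a member. The members that differed between the experiments numbered 5 to 7 without 1 library. The sign of 4 changes near 0 turned: AJUBA with MAPKi (-0.038 to 0.035 without 1 library), WWTR1 with Gln depletion (0.011 with DESeq2 and with its size factors, 0.00085 with a batch term, -0.073 to 0.0496 without 1 library), CCN1 with Gln depletion (-0.058 to 0.56 without 1 library) and the difference of AMOTL2 (-0.42 to 0.16 without 1 library). Why these values moved was not tested. Levels per kilobase rose by up to 1.66 times with the longest transcript. Counts near 0 limit ANKRD1.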
